A study of Mus musculus with 12 samples.

Results

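The genes described are 10 mouse genes of protein folding, chosen by name. They are the HSP90 genes Hsp90aa1, Hsp90ab1 and Hsp90b1, the HSP70 genes Hspa5 and Hspa8, the chaperonin gene Hspd1, and the protein disulfide isomerase genes P4hb, Pdia3, Pdia4 and Pdia6. A gene was counted as having a peak in a list when the authors' table named it as overlapped by that peak. By this rule 7 of the 10 genes had a peak in at least 1 of 6 lists of ac4C-enriched regions, with 18 of all 4753 peaks between them. No peak was listed on Hsp90aa1, P4hb or Pdia3.

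Mouse peritoneal macrophages, the phagocytes of the abdominal cavity, were cultured with 10% fetal bovine serum and held with interferon-γ (IFN-γ, "IFN-G" in the labels) for 0, 24 or 48 h. RNA pulled down for N4-acetylcytidine (ac4C) was sequenced (RIP-seq), and so was total RNA, in 12 samples that make 6 groups of 2. The labels used here name no strain, age or sex of the mice, and no group was kept without IFN-γ for 24 or 48 h, so the cytokine and the time in culture cannot be told apart. The values come from 6 deposited peak lists, 2 for each time; a list names its hour but not its sample, so "list 1" and "list 2" are names only. The labels do not tell whether both samples of a group were grown or taken separately.

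N4-acetylcytidine is an acetylated cytidine that the acetyltransferase NAT10 writes into ribosomal, transfer and messenger RNA. Antibody pull-down locates it to a stretch of transcript and not to a base. HSP70 proteins bind short exposed hydrophobic stretches of unfolded chains, and HSP90 proteins act later, on nearly folded clients such as kinases and receptors. In the endoplasmic reticulum (ER) the same families work beside protein disulfide isomerases, which make and reshuffle the disulfide bonds of secreted and membrane proteins; macrophages load this system with cytokines, lysosomal enzymes and, under IFN-γ, antigen-presenting molecules. Hspd1 encodes HSP60, the chaperonin of the mitochondrial matrix, so the list also holds a gene whose main product is neither cytosolic nor in the ER.

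At 0 h 1151 and 946 peaks were listed, against 725 and 646 peaks after 24 h, and 674 and 611 after 48 h. The depth of the libraries is not in the tables, but the deposited fold and p of a summit give the number of pull-down fragments and the control coverage there, for most summits without ambiguity. The median summit held 45 to 51 fragments, and the control of the shallowest list, 48 h list 2, had 44.5% of the depth of the deepest, 0 h list 1. Of 10 macrophage marker genes, Itgam had a peak in both 0 h lists and Lyz2 in 0 h list 2, and none had one later. Of 5 mesothelial markers Wt1 had a peak, in 48 h list 2, and none of the 3 to 5 markers each of B cells, T cells, neutrophils, mast cells, dendritic cells and fibroblasts did. A missing peak is not a missing transcript, so these counts give no level of any cell type, and their part in the counts of the chaperone genes was not tested. In these bulk samples fewer cells of a type and less RNA per cell cannot be told apart.

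Peaks on the chaperone genes were most numerous in the lists at 0 h. The genes with a peak numbered 4 and 5 in the 0 h lists, 1 and 3 in the 24 h lists, and 2 and 1 in the 48 h lists, means of 4.5, 2 and 1.5. Both 0 h lists thus held more of these genes than any of the 4 later lists, and the 24 h and 48 h lists overlapped; without 24 h list 2 the 24 h value was 1. Over either list of a time, 5 of the 10 genes had a peak at 0 h, 4 at 24 h and 2 at 48 h. Among all 21900 protein-coding genes the shares were 5.29% at 0 h, 3.71% at 24 h and 3.64% at 48 h, and 8.14% had a peak in any list, against the 7 of 10 here. That background counts every annotated gene, also those a macrophage does not transcribe, while the chaperone genes are active in nearly all cells. Protein-coding genes as a whole were also listed less at the later times, with 823 and 707 genes per list at the start, 528 and 472 after 24 h, and 515 and 463 after 48 h. As a share of the protein-coding genes of a list, the chaperone genes made 0.486% and 0.707% at 0 h, 0.189% and 0.636% in the 24 h lists, and 0.388% and 0.216% in those of 48 h, so by share the 0 h and 24 h lists overlapped. When every list was reduced to its 611 peaks with the smallest p, 4 and 2 of the genes were left in the 0 h lists, 1 and 3 in the 24 h lists, and 1 in each 48 h list. The 0 h and 24 h lists then overlapped too, as they did at a q of 0.05 or less, with 4 and 1, 1 and 2, and 0 and 1. Counting only peaks with a fold of at least 4, the means were 1, 1.5 and 1, highest at 24 h. These are counts with no test, since the genes were chosen with results of these data known.

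**Figure D1:**
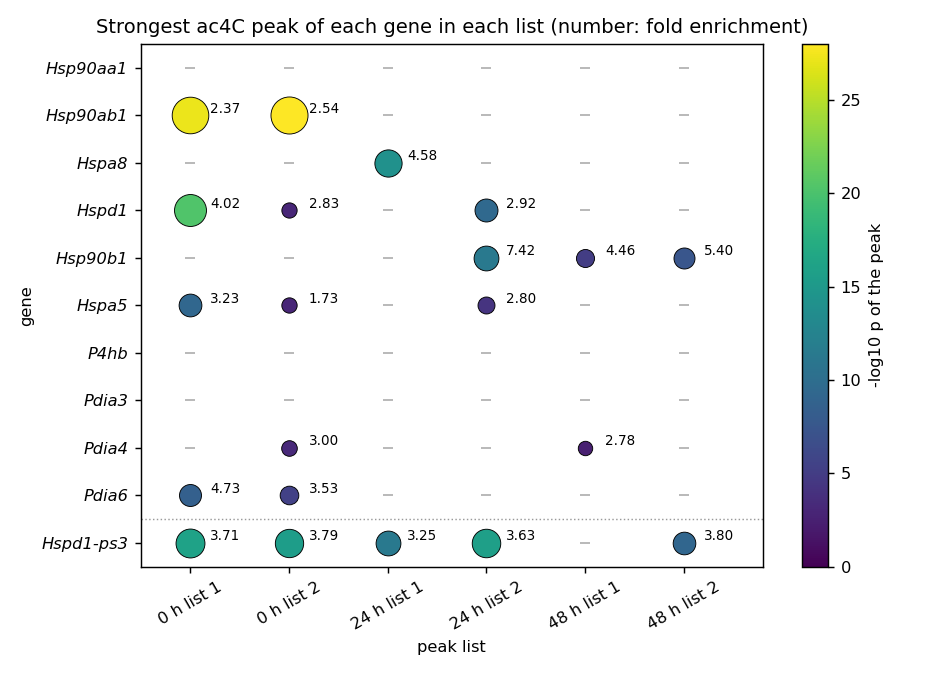
Strongest ac4C peak of each of the 10 genes and of the pseudogene Hspd1-ps3 (rows) in each of the 6 peak lists (columns). Circle area and colour give −log10 p, the printed number is the fold enrichment, and a dash marks a list with no peak; Hsp90ab1 has the smallest p and is seen only in the 0 h lists, Hsp90b1 only in later lists.

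Which genes carried the peaks changed from list to list. A peak in both lists of a time was seen for 4 of the 10 genes at 0 h (Hsp90ab1, Hspd1, Hspa5 and Pdia6), for 0 at 24 h, and at 48 h for 1, Hsp90b1. Listed in both, among all protein-coding genes, were 1.7% at 0 h, 0.854% at 24 h and 0.826% at 48 h. Hsp90ab1 and Pdia6, 2 of these 4 genes, were not listed again after 0 h. Of all 372 protein-coding genes in both lists at 0 h, 27.2% were not listed again. None of the 10 genes had a peak in all 6 lists. At a q of 0.05 or less only Hsp90ab1, at 0 h, still had a peak in both lists of a time. Of the 0 h lists, Hspd1, Hspa5 and Pdia6 then kept a peak in list 1 alone, and of the 48 h lists Hsp90b1 in list 2 alone. The shares of all protein-coding genes in all 6 lists, or in both lists at this q, are not given here. These last counts therefore show nothing particular to the 10 genes.

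Merged where they shared at least 1 base, the 18 peaks made 10 regions, of which 7 recurred in 2 or more lists and 3 stood in a single list. The share of all peak regions that recur in this way is not given here, so the 7 cannot be called many or few. At 0 h, 3 of the 7 regions on these genes were in both lists, in Hsp90ab1, Hspa5 and Pdia6; over all peaks 25.6% of the 0 h regions were. At 24 h 0 of 5 regions and at 48 h 0 of 3 were in both lists, where 16.6% and 17.2% of all regions were. Recurrence of the same stretch within a time was therefore seen on these genes only at 0 h, and at a q of 0.05 or less only in Hsp90ab1. With so few regions nothing more can be read from these counts.

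The cytosolic HSP90 pair was unequal. Hsp90ab1 (ENSMUSG00000023944), the constitutive HSP90β, carried the peaks of smallest p of the set, while Hsp90aa1, its stress-inducible partner HSP90α, was not named by any peak. In 0 h list 1 a peak at chr17:45881268-45881577 (GRCm39) ran from intron 5 into exon 6, with a fold enrichment of 2.37 (95% counting interval 2.16 to 2.60) and a −log10 p of 27.2. In 0 h list 2 the same stretch, chr17:45881261-45881529, had a fold of 2.54 (2.30 to 2.81) and a −log10 p of 27.9. The intervals overlap, but this does not measure the difference between the 0 h lists, which was not tested. Fold enrichment is the authors' ratio of pull-down over control at the summit with 1 added to both, and the intervals cover the counting error of the pull-down fragments alone.

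At this deeply covered site a modest fold came with a very small p. The exon 6 summit held 465 pull-down fragments over a control coverage of 85 in list 1, and 389 fragments over 71 in list 2. By p these peaks lay at percentiles 96.7 and 95.9 of their lists, by fold only at percentiles 25.9 and 31.8. A further peak in 0 h list 1, chr17:45878814-45879041, began in the last exon and was centred in the 3′ UTR, ending 113 bp before the annotated end of the gene. Its fold was 3.46 (3.04 to 3.92), its −log10 p 26.9, and it held 243 fragments. This 3′ UTR peak had no counterpart in 0 h list 2, and neither site was listed at 24 h or 48 h.

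Hspa8 (ENSMUSG00000015656), which encodes the constitutive cytosolic HSP70 known as HSC70, had a single peak. It lay in the last exon at chr9:40716262-40716486 in 24 h list 1, with a fold of 4.58 (3.82 to 5.45), a −log10 p of 14.1 and 121 fragments over a control coverage of 7. The other 24 h list and the 4 lists of 0 h and 48 h had none there. The gene start nearest to this peak in the authors' table was that of SNORD14, a small nucleolar RNA family encoded inside Hspa8, but the peak overlapped Hspa8 alone.

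Hspd1 (ENSMUSG00000025980) had peaks at 2 sites, in both 0 h lists and in 24 h list 2. The 3′ UTR site was listed at 0 h in list 1 at chr1:55117098-55117394, with a fold of 4.02 (3.40 to 4.72), a −log10 p of 20.2 and 145 fragments. In 24 h list 2 it was listed at chr1:55117141-55117414 with a fold of 2.92 (2.45 to 3.46), a −log10 p of 9.41 and 130 fragments. These peaks ended 104 and 147 bp before the end of the gene, and their fold intervals overlap only from 3.40 to 3.46. The exon 9 site was weaker. It was listed in 0 h list 2 (chr1:55119258-55119487, fold 2.83, 1.76 to 4.39) on 16 fragments with a q of 1, and in 24 h list 2 (chr1:55119258-55119481, fold 4.38, 2.96 to 6.32) on 23 fragments with a −log10 q of 0.691. Only 24 h list 2 held both sites, and the 0 h lists held one each.

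The pseudogene Hspd1-ps3 (ENSMUSG00000058809, chromosome 11, 41389564 to 41391285) was listed more often than Hspd1 itself. It was the only pseudogene of the 10 genes, by a symbol ending in -ps and a number, that had a peak, and 1 of the 23 Hspd1 pseudogenes in the RefSeq table. It had 6 peaks in 5 lists, all but 48 h list 1. The strongest peak of each list had a fold of 3.71 and 3.79 in the 0 h lists, 3.25 and 3.63 at 24 h, and 3.80 in 48 h list 2. Their −log10 p values were 16.2 and 15.4 in the 0 h lists, 11.3 and 15.7 in the 24 h lists, and 9.09 in 48 h list 2. A weaker, separate peak in 0 h list 1 had a fold of 1.79 and a q of 1.

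The strongest summit on the pseudogene stood at nearly the same place in every list that had a peak there. It lay 1540 and 1527 bp from the start of this 1721 bp locus in the 0 h lists, at 1536 and 1540 bp in the 24 h lists, and at 1545 bp in 48 h list 2, near the 3′ end of the locus. The far ends of these 5 peaks lay 60 to 82 bp before the end of the locus. The peaks of 0 h and 24 h also had a weaker summit, at 1199 to 1243 bp, and that of 0 h list 2 a further one at 862 bp. Hspd1-ps3 is by name a pseudogene of Hspd1, and how alike their sequences are was not measured here. The labels do not say how reads that match both places were treated. Which of these places the reads came from is therefore uncertain, and the lists of Hspd1 and of its pseudogene cannot be taken as independent counts. Counted together, a peak on Hspd1 or Hspd1-ps3 was present in both lists of 0 h and of 24 h and in 48 h list 2.

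**Figure D2:**
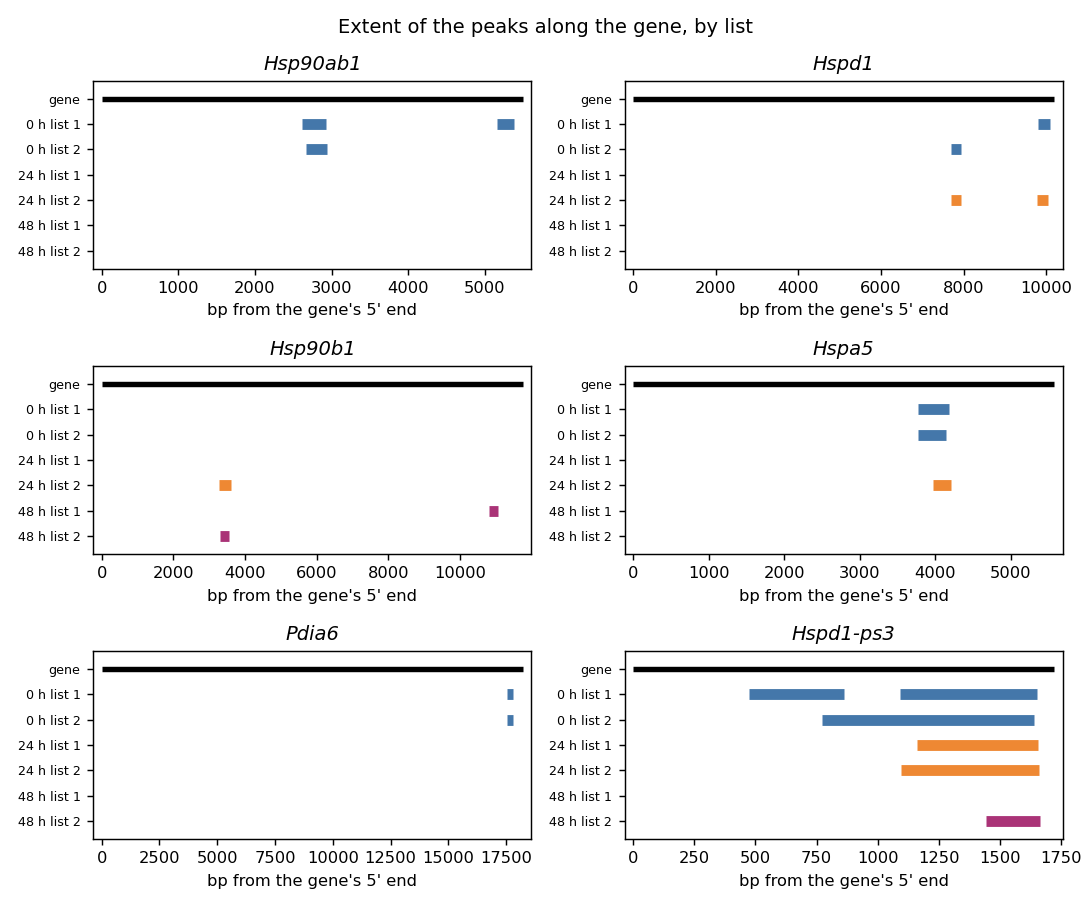
Extent of the peaks along Hsp90ab1, Hspd1, Hsp90b1, Hspa5, Pdia6 and the pseudogene Hspd1-ps3, in bp from the 5′ end of the gene (horizontal axis), one row per list; the black bar is the annotated gene. The Pdia6 and Hspa5 peaks stack at one place, Hspd1, Hsp90b1 and Hsp90ab1 each have 2 separate places, and Hspd1-ps3 has a peak near its 3′ end in 5 lists and a separate one in 0 h list 1; Hspa8 and Pdia4 are not drawn, since the tables used here give no start and end for them.

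In the ER, Hsp90b1 (ENSMUSG00000020048) was listed only after 0 h. It encodes GRP94, the ER member of the HSP90 family, which folds Toll-like receptors and integrins. In 24 h list 2 a peak at chr10:86534215-86534559 spanned exon 2, intron 2 and exon 3, centred in the intron. Its fold of 7.42 (5.49 to 9.86) was the highest of the 18 peaks, at percentile 98.9 of its list, with a −log10 p of 11.3 and 42 fragments over a control coverage of 1. In 48 h list 2 the same stretch, chr10:86534289-86534528, had a fold of 5.40 (3.92 to 7.30), a −log10 p of 7.52 and 35 fragments. The intervals of these peaks overlap. The intron 2 site was thus present in 1 list of each later time and in neither 0 h list.

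The Hsp90b1 peak of 48 h list 1 was elsewhere. It ran from the last intron into the last exon at chr10:86526780-86527031, with a fold of 4.46 (3.11 to 6.26), a −log10 p of 4.99 and 27 fragments. Its −log10 q was 0.587. The gene was therefore in both 48 h lists with no shared region. Where only peaks centred in an exon or UTR were counted, Hsp90b1 went from 3 lists to 1, this last-exon peak.

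Hspa5 (ENSMUSG00000026864) encodes BiP, the ER HSP70 and the usual readout of the unfolded protein response. Its peaks all lay at one place, from the last exon into the 3′ UTR. In 0 h list 1, chr2:34665753-34666165 had a fold of 3.23 (2.57 to 4.00), a −log10 p of 9.22 and 79 fragments over a control coverage of 10. In 0 h list 2, chr2:34665755-34666132 had a fold of 1.73 (1.38 to 2.14), a −log10 p of 3.00 and 79 fragments over 21. Both 0 h lists thus held the same number of pull-down fragments at this site, and the control coverage differed. Only the peak of list 1 had a q of 0.05 or less. The fold intervals of the 0 h lists do not overlap. They leave out the counting error of the control, so they do not show that the lists differ. In 24 h list 2, chr2:34665958-34666187 had a fold of 2.80 (2.11 to 3.66) and a −log10 p of 4.16 on 48 fragments, between the 0 h values. No list of 48 h held it.

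Of the disulfide isomerases, Pdia6 (ENSMUSG00000020571) had the stronger peaks. Pdia6, also called P5, is an ER oxidoreductase that binds BiP. Its 3′ UTR was listed in both 0 h lists, at chr12:17334073-17334363 with a fold of 4.73 (3.46 to 6.32) and a −log10 p of 8.45, and at chr12:17334081-17334350 with a fold of 3.53 (2.43 to 4.99) and a −log10 p of 5.47. The summits held 41 and 28 fragments, with a −log10 q of 3.88 and 1.21, and the fold intervals overlap. The peaks ended 408 and 421 bp before the end of the gene, and none was listed after 0 h.

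Pdia4 (ENSMUSG00000025823), the isomerase ERp72, had the lowest −log10 p of the 7 genes when the strongest peak of each is taken. In 0 h list 2 its 3′ UTR had a peak at chr6:47773182-47773415 with a fold of 3.00 (1.86 to 4.65), a −log10 p of 3.20 and 16 fragments. In 48 h list 1 an overlapping peak at chr6:47773270-47773494 had a fold of 2.78 and a −log10 p of 2.41, close to the lowest values of the lists, 2.3 to 2.33. Both had a q of 1. P4hb, the founding protein disulfide isomerase, and Pdia3, the isomerase ERp57 of the calnexin cycle and the peptide-loading complex of MHC class I, had no peak in any list.

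**Figure D3:**
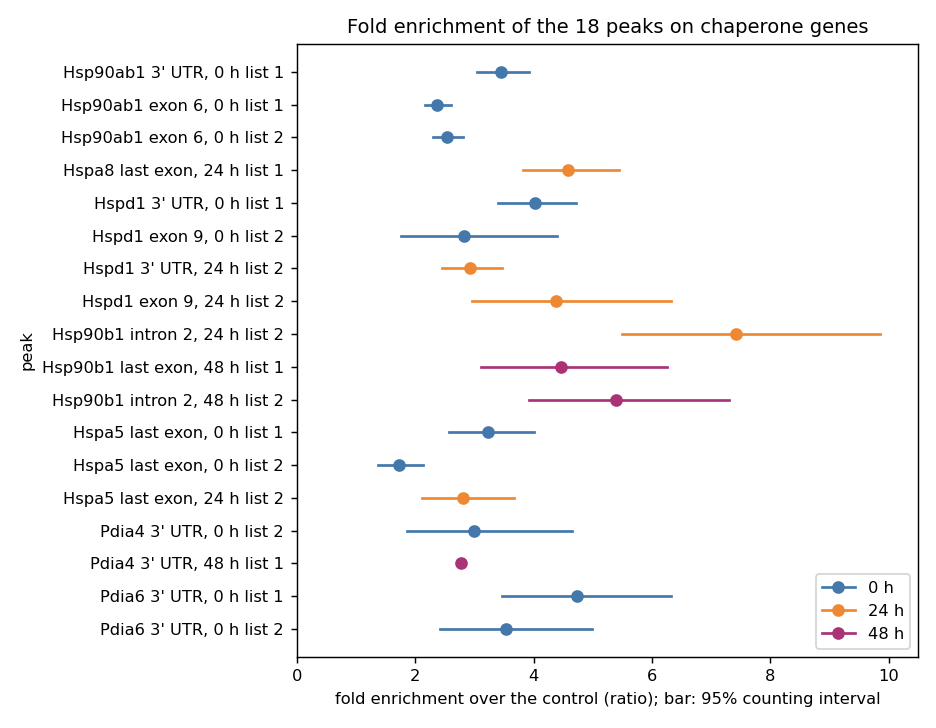
Fold enrichment of the 18 peaks (horizontal axis, a ratio) by gene, place and list, coloured by time; bars are 95% counting intervals of the pull-down fragments, and 1 Pdia4 peak has none because its fragment number is not unique. Hsp90b1 in 24 h list 2 is highest at 7.42 and Hspa5 in 0 h list 2 lowest at 1.73.

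As a set, the peaks were ordinary in fold and somewhat stronger in p than the peaks of the lists. The median fold of the 18 was 3.34 (range 1.73 to 7.42), against 3.05 (1.17 to 12.7) over all 4753 peaks. Their median −log10 p was 7.98, against 5.21. A q of 1 was listed for 5 of the 18 peaks and for 34.0% of all peaks, and a q of 1e-05 or less for 6 of the 18 and for 18.5% of all. By p, 5 of the 18 lay in the top 10% of their list, while 7 lay in its lower part, under the median. Those in the top 10% were all the Hsp90ab1 peaks, the Hspa8 peak and the 3′ UTR peak of Hspd1 in 0 h list 1. Peaks at the same site are not independent. The peaks were 223 to 412 bp wide, and each overlapped a single gene.

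Most of the peaks were centred in a last exon or 3′ UTR, as most peaks of the lists were. Of the 18 peaks, 7 were centred in a 3′ UTR and 5 in a last exon, with 4 in other exons, 2 in an intron and 0 in a 5′ UTR. Over all peaks 49.4% were centred in a 3′ UTR, 17.7% in a last exon, 16.3% in other exons, 5.13% in an intron and 3.07% in a 5′ UTR. The last-exon and 3′ UTR peaks were all those of Hspa8, Hspa5, Pdia4 and Pdia6, and the 3′ UTR peaks of Hsp90ab1 and Hspd1. The Hsp90b1 peak of 48 h list 1 was also among them. The peaks in other exons were those of Hsp90ab1 in exon 6 and of Hspd1 in exon 9. The 2 intronic peaks were both the Hsp90b1 site.

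Since the controls of the later lists were shallower, each peak was rescaled to the control depth of every list that lacked a peak on that gene, and its p was computed again. This takes the same enrichment and the same share of the control as given, adds no sampling noise and starts from peaks that had passed, so it describes the size of these peaks and does not tell why a list lacks one. All 3 Hsp90ab1 peaks would have passed the p of 0.005 that the lists show, in all 4 lists without a peak on the gene. Their lowest rescaled −log10 p was 12.7, against the 2.3 needed. The 3′ UTR peak of 0 h list 1 was missing from 0 h list 2 too, where it would have passed at 24.3. Pdia6 would have passed in all 4 later lists, at 3.10 or more. The Hspa8 peak would have passed in the 5 lists without it, at 9.03 to 18.9, and the 3 Hsp90b1 peaks in both 0 h lists and in 24 h list 1, at 6.90 or more. In 48 h list 1, which held only the last-exon site of Hsp90b1, the intron 2 peak of 48 h list 2 would have passed at 8.56.

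The weaker peaks lay nearer the threshold. The Pdia4 peaks would have passed in 3 of the 4 lists without one, and in 48 h list 2 both fell to 1.88, below the threshold. The exon 9 peak of Hspd1 in 0 h list 2 would have passed in 1 of 3 lists, whereas the 3′ UTR peak of 0 h list 1 would have passed in all 3, at 9.83 to 15.1. In 0 h list 2, which held the exon 9 site only, that 3′ UTR peak would have passed at 18.3. The exon 9 peak of 24 h list 2 would have passed in 3 of 3 lists, at 3.66 to 4.44. The Hspa5 peak of 0 h list 1 would have passed in 3 of 3 lists at 4.75 to 7.12. That of 0 h list 2 would have passed in 2 of 3, at 2.59 in 24 h list 1 and 2.34 in 48 h list 1. In 48 h list 2 it fell to 2.05, below the threshold. The Hspa5 peak of 24 h list 2, which had a q of 1, would have passed in 3 of 3, at 2.66 to 4.07. The libraries of total RNA were not analysed on their own here, so in a missing peak less of the transcript and less ac4C per transcript cannot be told apart.

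**Figure D4:**
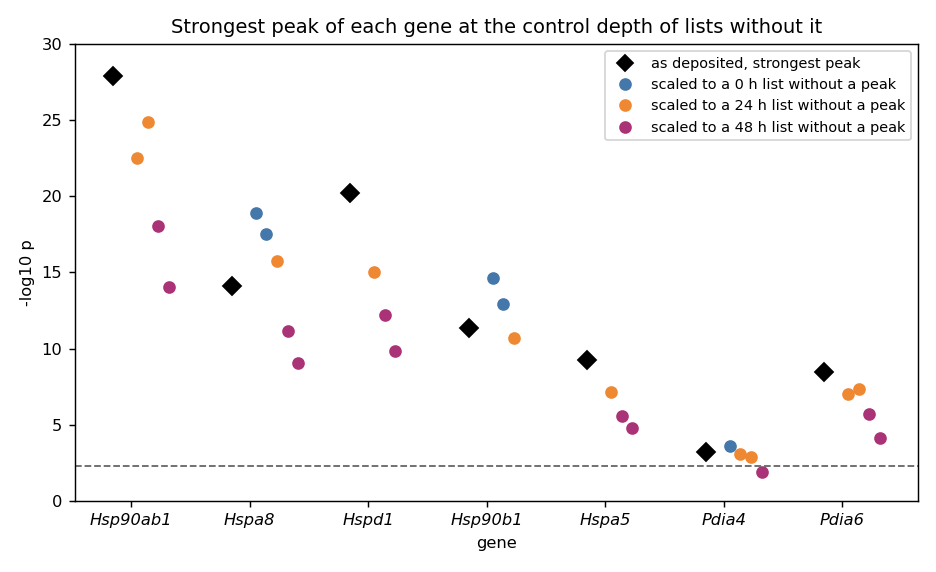
The −log10 p of the strongest peak of each gene as deposited (diamond) and after scaling to the control depth of each list without a peak on that gene (circles, coloured by the time of that list); the dashed line is p of 0.005. All circles of Hsp90ab1, Hspa8, Hspd1, Hsp90b1, Hspa5 and Pdia6 lie above the line, and 1 circle of Pdia4 lies below it.

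The wider folding machinery was read from a list of 130 genes in 9 classes, which includes the 10 genes. A peak in any list was seen on 37 of the 130, and on 30 of the 120 others (25.0%), where 8.14% of all protein-coding genes had one. Over the 120 others, 21 had a peak at 0 h, 13 at 24 h and 17 at 48 h. Per list they numbered 14 and 11 in the 0 h lists, 10 and 7 after 24 h, and 10 in each list of 48 h, fewer in each later list than in either 0 h list. As a share of the protein-coding genes of each list they made 1.70% and 1.56% in the 0 h lists, 1.89% and 1.48% in those of 24 h, and 1.94% and 2.16% in those of 48 h, so the share was not lower at 48 h. Of the 30, 15 had a peak in 1 list only.

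Among the HSP70 family, 5 of 15 genes had a peak, and Hspa4, an HSP110-type exchange factor of HSP70, was the one gene of the 130 with a peak in all 6 lists. Its strongest peak, in exon 16, had a fold of 6.60. Hspa9, the mitochondrial HSP70 mortalin, was listed 4 times, in both 0 h lists and in 1 list of each later time, with a fold of 3.32 in its 3′ UTR at the strongest, and Hspa4l once. In the HSP90 family only Hsp90ab1 and Hsp90b1 of 4 genes had a peak.

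The cytosolic chaperonins were spread over the times. With Hspd1, 6 of the 16 chaperonin and prefoldin genes had a peak, 5 at each time. The CCT ring, which folds actin and tubulin, was represented by Cct6a in 5 lists (exon 7, fold 4.54 at the strongest), Cct2 in 3, and Tcp1 and Cct8 in 2 each, and prefoldin by Pfdn5 in 3. The heat shock J-domain proteins, which deliver clients to HSP70, had peaks on 5 of 20 genes: Dnaja2 in both 0 h lists, Dnajc3 and Dnajc7 in 2 lists each, and Dnaja3 and Dnajb6 in 1.

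Of the 21 cytosolic co-chaperones 7 had a peak, 5 of them at 0 h, 1 at 24 h and 3 at 48 h. Stip1, the adaptor HOP that joins HSP70 to HSP90, was listed in 4 lists with a fold of 4.54 in its 3′ UTR at the strongest. The other 6 were listed once each. Ptges3, the HSP90 co-chaperone p23, had a 5′ UTR peak with a fold of 6.40, and Bag1, Bag5 and Stub1 were likewise seen in 0 h list 1 alone. Cdc37, which brings kinases to HSP90, and Chordc1 were seen in 48 h list 2 alone.

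In the ER classes, 4 of 20 disulfide isomerase and oxidation genes had a peak: Pdia4 and Pdia6, and with them Tmx3 in 3 lists and Tmx1 in 1. Of 12 lectin chaperone and other folding genes 4 had one, all of them at 0 h. Manf, an ER stress-induced factor that binds BiP, was listed in both 0 h lists and in 24 h list 2, the same lists as Hspa5. Canx, the lectin chaperone calnexin, was listed in 0 h list 1 and 48 h list 1, and Calr and Sdf2l1 in 0 h list 1 alone. Of the 17 regulators of the unfolded protein and heat shock responses, 3 had a peak. Atf4, a transcription factor of the integrated stress response, was in 4 lists with a last-exon fold of 2.54 and a −log10 q of 10.4 at the strongest, and Syvn1 and Edem3, of ER-associated degradation, were in 1 each. Serpinh1, the collagen chaperone Hsp47, was the only gene of 5 in its class, in 48 h list 1.

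**Figure D5:**
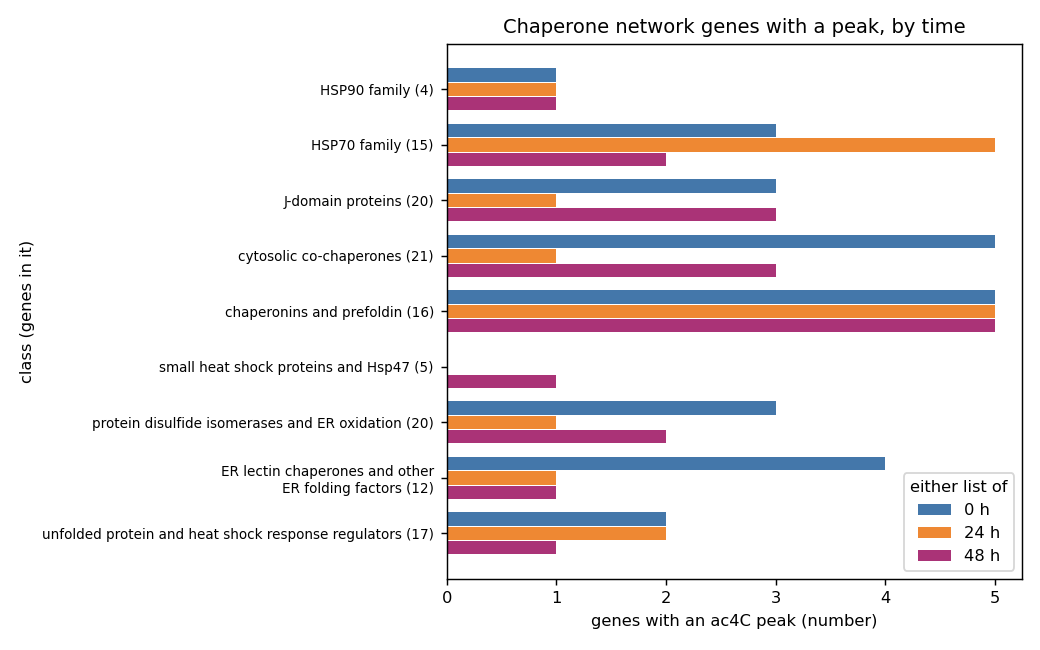
Number of genes with an ac4C peak in either list of a time (horizontal axis) for each class of folding genes (class size in brackets), coloured by time. Chaperonins and prefoldin have 5 genes at each time, cytosolic co-chaperones 5, 1 and 3 at 0, 24 and 48 h, and the ER lectin class 4, 1 and 1.

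Genes with the same lists and the nearest strength, taken as the mean percentile of −log10 p over those lists, were sought for each chaperone gene with at least 2 lists. For Hsp90ab1, at a mean percentile of 96.3, the nearest of the 100 other protein-coding genes in both lists at 0 h and not later were Hsd17b4 (94.7), Tmem132d (91.9) and Ctsl (87.5). For Pdia6 (59.9) they were Wbp1l (60.0), Tm9sf3 (60.3) and Ddx6 (60.5). Hspd1 (63.1) and Hspa5 (43.2) had the same 3 lists, and each had 12 other genes in that pattern. Tars (68.3), Tmem65 (72.1) and then Hspa5 were nearest to Hspd1, and Mgst1 (41.0), Foxo3 (35.9) and Manf (28.9) to Hspa5. For Hsp90b1 (70.5) the nearest of 5 were Stam (73.1), Myl12b (84.5) and Selenow (93.3). For Pdia4 (9.19) the nearest of 19 were Dnajc7 (11.3), Zc3h13 (6.03) and Tnrc6b (19.2). Likeness here is over 6 lists only.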

How the data were processed

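The 6 lists are tables of peaks called per list and not pooled over a time, with 1 row for each summit and overlapped gene. BWA 0.7.12, MACS2 2.1.0 and the build GRCm39 are named per the submitters' processing notes, without roles or settings. Fold enrichment is the authors' deposited ratio of pull-down over control at the summit, and p and q are the authors' deposited −log10 values, per the file headers; the lowest −log10 p of a list is 2.3 to 2.33. The labels do not say which library served as control. BWA does not model splicing, so where it aligned the reads, fragments over an exon junction may be missing or placed at a processed pseudogene. Starts are printed as deposited; counting from 0 or 1 is not stated, and they may be 1 base off.

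Rows with the same chromosome, start and end were 1 peak, described by its best summit by p, and its place was the authors' annotation of its centre. Regions were merged at an overlap of 1 base. Gene types and the count of 21900 protein-coding genes were taken from RefSeq (GRCm38.p6, for names and types alone); 94.4% of 2095 symbols matched. Pull-down fragments were recovered as the whole number that, times 1 factor per list, gives the deposited fold and the Poisson p. All summits matched within 0.005 of −log10 p, with the factor chosen for the best match. Only 1 number matched at 81.6% to 91.2% of the summits of a list. On data simulated with the same formula 100% of the fragment numbers came back, which does not check that formula on the deposited values. The factors, control over pull-down depth, were 0.437 and 0.468 in the 0 h lists, 0.295 and 0.330 in those of 24 h, and 0.293 and 0.259 in those of 48 h. Intervals are exact 95% Poisson intervals of the fragments and cover counting error only.

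No p-value was computed between times. Members, classes and lists were chosen with earlier results of these data known. Named were all 10 genes and their pseudogenes, folding genes with a peak in 2 or more lists (and single-list genes where a class has 5 or fewer with one, or as part of its count), and the 3 genes nearest in strength with the same lists. Alternatives were a q of 0.05 or 1e-05, a fold of 4, the centre in the gene or in an exon or UTR, equal list length, matched control coverage, leaving out each list, and a 50% reciprocal overlap. Python 3.11.15, pandas 2.3.3, NumPy 2.4.6, SciPy 1.17.1 and matplotlib 3.10.9 were used.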

Additional observations from a re-analysis of the deposited data

How the results depend on the processing

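The mean numbers of chaperone genes per list, 4.5 at 0 h, 2 at 24 h and 1.5 at 48 h, kept their order under each alternative except leaving out a list and a fold of 4 or more, which gave 1, 1.5 and 1. With q limited to 0.05 they were 2.5, 1.5 and 0.5. With q limited to 1e-05 they were 1.5, 1 and 0, with Hsp90ab1, Hspa8, Hspd1 and Hsp90b1 left. Equal list length and matched control coverage each gave 3, 2 and 1 and left Pdia4 in no list. Without either list of its time the value ranged from 4 to 5 at 0 h, from 1 to 3 at 24 h and from 1 to 2 at 48 h. With a 50% reciprocal overlap the Hspa5 peak of 24 h list 2 split from the 0 h peaks, and 7 regions were still in 2 or more lists. At a q of 0.05 the number of lists fell for Hspd1 and Hsp90b1 (3 to 2 each), Hspa5 (3 to 1), Pdia4 (2 to 0) and Pdia6 (2 to 1). The same genes fell at a q of 1e-05, to 1 for Hspd1 and Hsp90b1 and to 0 for the others. At a fold of 4 it fell for Hsp90ab1, Hspa5 and Pdia4 (to 0 each), Hspd1 (to 2) and Pdia6 (to 1). When the centre had to lie in an exon or UTR it fell for Hsp90b1 alone, to 1. The causes were not tested. No paired analysis was possible because the lists carry no sample and no test was made. Few fragments limit the precision of the weaker peaks: on 16 fragments, the fold of 2.83 of the exon 9 Hspd1 peak had an interval of 1.76 to 4.39.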

Other observations

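Beyond the listed classes, the authors' tables carry Gene Ontology terms, and the term unfolded protein binding was counted, a choice made after seeing the data. It was attached to 28 of 1783 protein-coding genes that had any peak, or 1.57%. Per list it marked 10 of 823 and 13 of 707 genes at 0 h (1.22% and 1.84%), 7 of 528 and 7 of 472 at 24 h (1.33% and 1.48%), and 9 of 515 and 7 of 463 at 48 h (1.75% and 1.51%). The 24 h and 48 h shares all lay between those of the 0 h lists, above that of list 1 and below that of list 2. Of the 28, 9 were outside the list of folding genes used above: Ccdc115, Cdc37l1, Heatr3, Mkks, Npm1, Nudc, Nudcd2, Srsf10 and Tbce. None of the 28 was in all 6 lists.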
